A study of Homo sapiens with 4 samples.

Results

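The 10 genes described here are FOS, FOSB, FOSL1, FOSL2, JUN, JUNB, JUND, ATF3, EGR1 and IER2, the AP-1 genes and close companions of the immediate early response. They were selected by gene name, because FOS, FOSB and ATF3 differ strongly between the shRNA clones on these arrays. The difference between the clones therefore chose them, and for the 10 genes it is given below as a description with no test. A ratio within a clone is a part of that difference, so tests of it are not independent of this choice. The members are 10 of 30982 gene names and are read by 16 of 41000 probes, in 25 of 43376 probe spots. All 16 probes were well above background in both channels on all 4 arrays, and 0 were saturated. The spot of JUNB probe A_23_P4821 on replicate 2 of clone #4-7 was flagged as an outlier and left out, so that this probe has 1 array for clone #4-7.

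HCT116 is an established human colon cancer cell line. The arrays compared RNA of HCT116 clones carrying an shRNA against the long noncoding RNA N-BLR, clone #3-1 and clone #4-7, with RNA of an HCT116 clone carrying the empty vector, to ask which genes follow the loss of N-BLR. Each clone was hybridised on 2 Agilent 2-colour arrays, and by the labels Cy5 carried the shRNA clone on all 4 and Cy3 the empty vector, with no dye swap. Each line is 1 clone, so an effect of the shRNA and a difference between clones cannot be told apart. The 2 arrays of a clone are biological replicates by their labels and duplicates by the methods. The p-values measure the spread between these arrays, and a ratio tested against 0 leaves out the spread of the empty vector clone, which is 1 control sample that the ratios of both clones share. The labels describe transduction with lentivirus, whereas the methods describe transfection of the shRNA vector and selection with G418. The number of probes named N-BLR was 0, so the knockdown itself was not read here.

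AP-1 is a dimer of basic leucine zipper (bZIP) proteins, made of a Fos and a Jun protein or of Jun proteins alone, that binds short DNA elements in the control regions of many genes. Several of its genes are immediate early genes: growth factors, serum, stress or fresh medium switch them on within minutes, without new protein synthesis, through mitogen-activated protein (MAP) kinases and transcription factors such as SRF, and their mRNAs decay quickly. In epithelial cancer cells AP-1 is known for its part in proliferation, migration and the expression of matrix proteases.

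Promoters of 4 members are shown because immediate early genes are switched on there and the levels of most members differed in the same direction between the arrays of the clones. RefSeq promoters of build GRCh38.p14 were given for 9 of the 10 members, with 10 transcription starts, and the 250 bases before each start were searched on both strands. FOSL1 was not in the table. Capitals mark TGACGT (the core of the cAMP response element, CRE), TATAAA (the TATA box) and the CArG box to which SRF binds, or their reverse complements:

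FOS, chr14:75278578-75278827, plus strand: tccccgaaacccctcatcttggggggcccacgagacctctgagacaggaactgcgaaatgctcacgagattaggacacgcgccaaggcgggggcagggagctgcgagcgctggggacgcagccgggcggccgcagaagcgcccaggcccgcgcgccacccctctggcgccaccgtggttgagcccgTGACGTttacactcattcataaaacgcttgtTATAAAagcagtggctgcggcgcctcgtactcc

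FOSB, chr19:45467746-45467995, plus strand: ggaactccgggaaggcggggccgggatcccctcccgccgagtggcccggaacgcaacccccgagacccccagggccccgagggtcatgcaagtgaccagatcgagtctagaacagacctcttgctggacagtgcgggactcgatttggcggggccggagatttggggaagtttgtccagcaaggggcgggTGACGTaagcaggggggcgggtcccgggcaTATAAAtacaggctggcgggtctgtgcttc

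FOSL2, chr2:28392608-28392857, plus strand: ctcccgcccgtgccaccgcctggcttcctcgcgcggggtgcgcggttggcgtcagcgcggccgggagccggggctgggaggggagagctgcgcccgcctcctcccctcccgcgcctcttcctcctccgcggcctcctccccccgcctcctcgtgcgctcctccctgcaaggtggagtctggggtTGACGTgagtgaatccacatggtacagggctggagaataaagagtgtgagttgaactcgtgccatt

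EGR1, chr5:138465229-138465478, plus strand: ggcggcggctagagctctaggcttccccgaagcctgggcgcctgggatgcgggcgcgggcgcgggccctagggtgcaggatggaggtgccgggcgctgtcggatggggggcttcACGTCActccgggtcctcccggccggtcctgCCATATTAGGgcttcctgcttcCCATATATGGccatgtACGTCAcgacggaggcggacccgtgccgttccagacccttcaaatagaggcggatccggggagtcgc

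TGACGT was found 64 to 59 bases before the start of FOS, 60 to 55 before that of FOSB and 66 to 61 before that of FOSL2. TATAAA lay 33 to 28 bases before the start of FOS and 30 to 25 before that of FOSB. EGR1 held CArG boxes 105 to 96 and 83 to 74 bases before its start and TGACGT letters 136 to 131 and 67 to 62 before it. TGACGT was present in 5 members and in 7.1% of all 35116 promoters of this length. TATAAA was present in 4 members and in 10.7%, and the CArG box in 1 member and in 1.16%. The TATAAA of ATF3 lay 230 to 225 bases before its second listed start, further off than in FOS and FOSB. The 4 promoters shown are among the 5 with TGACGT. They are not the 4 with the largest differences between the clones, since JUN differed more than FOSL2. In JUND, 2 of its 3 matches to TGACGT overlap, at 200 to 195 and 198 to 193 bases before the start. The AP-1 site TGANTCA was found in 0 members and in 6.57% of all promoters. The windows of JUN and IER2 held none of these letters. Only these exact letters were searched, so variants such as tgacatca, present in windows of JUN and ATF3, were not counted. Sites further from a start than the window, including any further CArG box of FOS, were not searched. The absence of a match thus does not show that a member lacks such an element. A match is a run of letters and not a measured binding site.

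The channels are described before the members because their levels go against the labels. Every array carried the same empty vector clone in Cy3 by its label, yet the arrays of the clones differed mainly in that channel. Of 26916 probes well above background in both channels on all arrays, 1034 differed at least 2-fold between the arrays of the clones in Cy3 and 27 in Cy5. The SD of the difference over these probes was 0.464 in Cy3 and 0.127 in Cy5 on the log2 scale. With the signals processed by the scanner's software, a comparison chosen after seeing the data, the counts were 2233 and 57. Those signals are not aligned between arrays, and the median change from the arrays of clone #3-1 to those of clone #4-7 was -0.17 in Cy3 and -0.21 in Cy5 over these probes, against 0.00 and -0.02 after normalization. The direction is also against the study's text. CDH1 (E-cadherin, an epithelial adhesion protein) was lower and VIM (vimentin, a mesenchymal filament protein) higher in Cy5. The study describes E-cadherin as raised and vimentin as lowered by the knockdown. It reports this from its arrays and from qRT-PCR and immunofluorescence of both clones. The log2 ratio of Cy5 over Cy3 was -2.60 ± 0.01 for CDH1 and 4.45 ± 0.01 for VIM (probe A_23_P161190) in clone #3-1 (SD, n = 2 arrays). In clone #4-7 it was -1.35 ± 0.03 and 2.38 ± 0.02. Whether the dyes were assigned as labelled was not tested. Ratios below are Cy5 over Cy3 as labelled, and the channels are named by dye. With the dyes exchanged every ratio would change its sign.

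By array and channel, the share of probe spots well above background was 68.5 to 72.6%, and 87 to 125 spots per array were left out as outliers. Across all probes, which are not independent, log2 ratios correlated at r = 0.953 and 0.957 between the replicates of a clone and at 0.396 to 0.408 between arrays of different clones. Of 8 epithelial markers 7 were well above background in both channels on all arrays, including EPCAM and the keratins KRT8, KRT18 and KRT19, and VIL1 was not on any. Among defining markers of other cells, PTPRC of leukocytes, PECAM1 and CDH5 of endothelium and COL1A2 and COL3A1 of fibroblasts were well above background on no array. Among the other markers of these cells, CD3E and CD14 of leukocytes, VWF of endothelium and COL1A1 of fibroblasts did pass on all arrays. COL1A1 had mean log2 levels of 9.72 and 10.50 in Cy3 on the arrays of clone #3-1 and clone #4-7 and of 9.13 and 9.36 in Cy5, and its part in the results was not tested. In RNA of whole cultures, fewer cells with a transcript and less of it per cell cannot be told apart.

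FOS and FOSB, the founding Fos proteins that bring the strongest transactivation to AP-1, differed most among the 10 genes. The FOS probe (chr14:74817967-74818026, hg17) had normalized log2 levels in Cy3 of 10.33 and 10.31 on the arrays of clone #3-1 and of 15.66 and 15.67 on those of clone #4-7. In Cy5 it had 10.54 and 10.62 and then 11.19 and 11.22. The Cy3 levels of the clones' arrays lay far apart, 40.7-fold, while the Cy5 levels lay 1.55-fold apart. The log2 ratios were 0.21 and 0.31 in clone #3-1 and -4.47 and -4.45 in clone #4-7, a difference of 4.72 or 26.3-fold. Read as labelled, FOS was thus far lower in clone #4-7 than in the empty vector channel and slightly above it in clone #3-1. With the dyes exchanged it would be as much higher in clone #4-7.

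FOSB (chr19:50670045-50670104, hg17) had the second largest difference of all 41000 probes by size, and FOS was at rank 6. Its Cy3 levels were 8.23 and 8.08 on the arrays of clone #3-1 and 14.59 and 14.63 on those of clone #4-7, 87.7-fold higher. Its Cy5 levels were 8.670 and 8.645 and then 9.470 and 9.504, 1.78-fold higher. The log2 ratios were 0.44 and 0.56 in clone #3-1 and -5.12 and -5.13 in clone #4-7, 5.62 apart. After normalization FOS and FOSB were also the members with the largest change in Cy5, in the same direction as in Cy3. With the processed signals the Cy5 change was 0.43 for FOS and 0.89 for FOSB, and that of EGR1, -0.54, was larger in size than that of FOS.

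**Figure D1:**
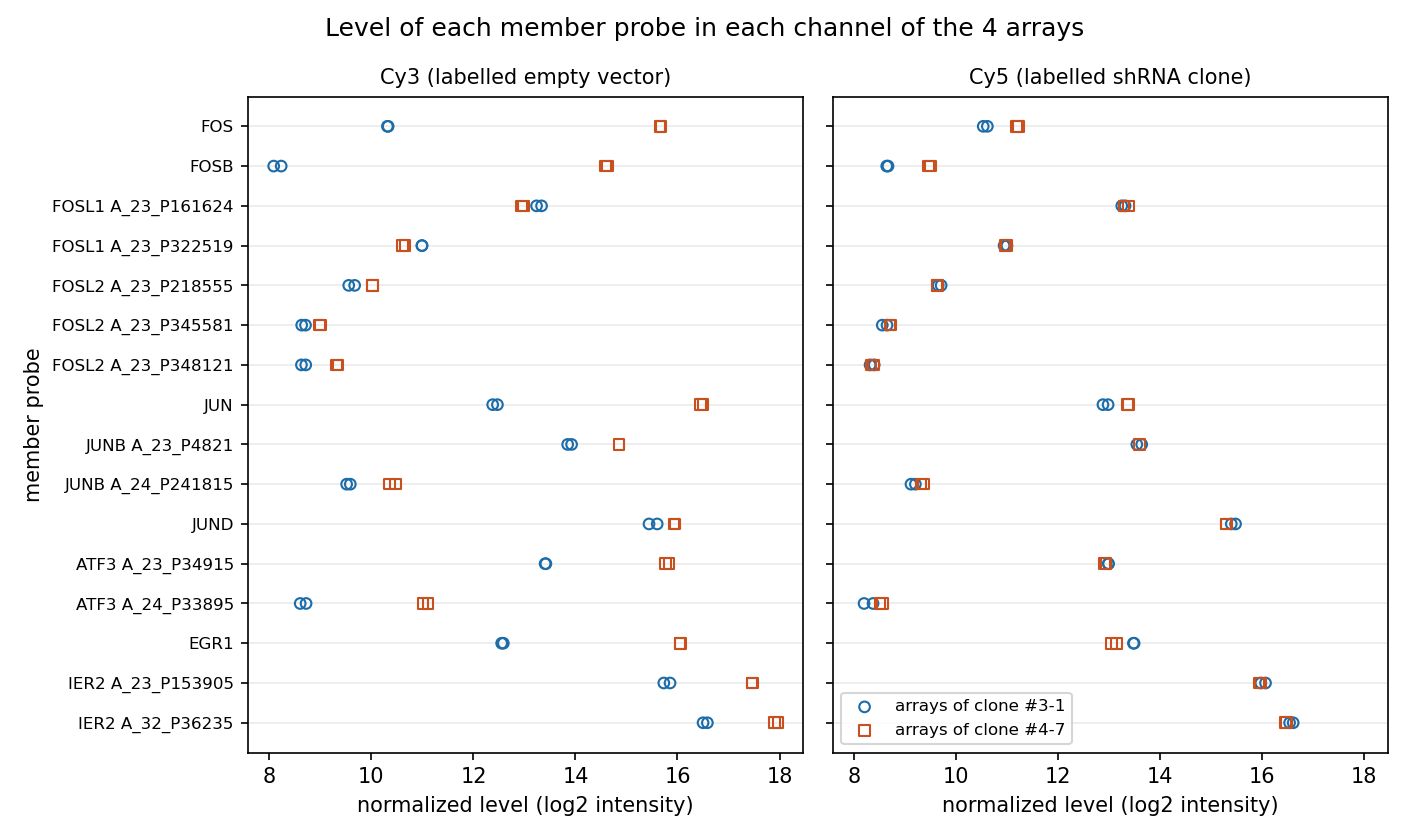
Normalized level (log2 intensity) of each of the 16 member probes in Cy3 (left) and Cy5 (right), with a circle for each array of clone #3-1 and a square for each array of clone #4-7 (JUNB A_23_P4821 has 1 array of clone #4-7). In Cy3 the squares of FOS, FOSB, JUN, EGR1 and ATF3 lie far to the right of the circles, whereas in Cy5 squares and circles lie close together.

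The Fos-related antigens FOSL1 (FRA1) and FOSL2 (FRA2), Fos proteins without a strong transactivation domain, lay closer together. FOSL1, often the main Fos protein of cancer cells with active RAS signalling, had 2 probes with log2 ratios between -0.04 and 0.02 on the arrays of clone #3-1 and between 0.32 and 0.45 on those of clone #4-7. It was the only member gene that was lower in Cy3 on the arrays of clone #4-7, by 0.33 and 0.36 on the log2 scale. In clone #4-7 both probes were higher in Cy5 by limma, by 0.38 ± 0.04 (SE; adjusted p = 0.00091) and 0.34 ± 0.03 (adjusted p = 0.00048), and in clone #3-1 neither passed (adjusted p = 0.99 and 0.68). FOSL2 had 3 probes, with mean log2 ratios of 0.07, -0.07 and -0.31 in clone #3-1 and of -0.38, -0.27 and -0.97 in clone #4-7. The change in Cy3 was 1.25-fold to 1.58-fold. By size of the difference between the clones the 3 probes ranked 5803, 14935 and 2752 of all 41000. By limma all 3 were lower in Cy5 in clone #4-7 (adjusted p = 0.00033, 0.00081 and 2.5e-05), and the third was lower in clone #3-1 too (adjusted p = 0.00047).

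Of the Jun proteins, which form the partner that every classical AP-1 dimer needs, JUN differed most between the clones. JUN (chr1:58959750-58959809, hg17) is printed in 10 spots on each array. Its Cy3 levels were 12.47 and 12.38 on the arrays of clone #3-1 and 16.45 and 16.50 on those of clone #4-7, and its Cy5 levels were 12.99 and 12.88 and then 13.37 and 13.38. The change was 16.6-fold in Cy3 and 1.36-fold in Cy5. The log2 ratios were 0.52 and 0.51 in clone #3-1 and -3.09 and -3.12 in clone #4-7, and over the 10 spots of an array their SD was 0.052 to 0.082. By limma JUN was higher in Cy5 in clone #3-1 (0.51 ± 0.03 SE, adjusted p = 1e-04) and lower in clone #4-7 (-3.10 ± 0.03, adjusted p = 3.9e-06).

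JUNB and JUND, which can restrain JUN activity in some settings, had log2 ratios below 0 on all arrays. JUNB was lower in Cy5 at both probes in clone #3-1 (-0.29 and -0.39, adjusted p = 0.0021 and 0.00029, limma) and also in clone #4-7 (-1.25 and -1.07, adjusted p = 0.00011 and 2.4e-05). The first of these rests on 1 array, which the fit assumes to vary like those of clone #3-1. JUND, which is expressed steadily rather than induced in many cells, had a mean log2 ratio of -0.08 ± 0.05 (SD) in clone #3-1 and of -0.64 ± 0.03 in clone #4-7, and passed the test in clone #4-7 (adjusted p = 9.6e-05, limma) and not in clone #3-1 (adjusted p = 0.098). Its Cy3 level was 1.34-fold higher on the arrays of clone #4-7, and its Cy5 level 0.909 of that on the arrays of clone #3-1.

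ATF3, a stress-induced bZIP protein that pairs with Jun proteins and can repress transcription, was below 0 on all arrays. At probe A_23_P34915 (chr1:209182251-209182310, hg17) the log2 ratios were -0.43 and -0.41 in clone #3-1 and -2.85 and -2.89 in clone #4-7. Its Cy3 levels were 13.42 and 13.41 and then 15.76 and 15.83, and its Cy5 levels were 12.99 and 12.99 and then 12.91 and 12.94. The Cy3 level was 5.22-fold higher on the arrays of clone #4-7 and the Cy5 level differed by -0.06 on the log2 scale, or by -0.22 with the processed signals. The second probe, A_24_P33895, gave -0.40 and -0.34 in clone #3-1 and -2.50 and -2.55 in clone #4-7, with a 5.26-fold change in Cy3.

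EGR1, a zinc finger factor induced through SRF by the same signals as FOS, had opposite signs in the clones. At its probe (chr5:137832790-137832849, hg17) the Cy3 levels were 12.59 and 12.55 on the arrays of clone #3-1 and 16.05 and 16.05 on those of clone #4-7. Its Cy5 levels differed the other way, with 13.50 and 13.48 and then 13.14 and 13.06. The log2 ratios were 0.91 and 0.93 in clone #3-1 (higher in Cy5, adjusted p = 3.5e-05, limma) and -2.91 and -3.00 in clone #4-7 (lower, adjusted p = 4.8e-06). IER2, a small immediate early protein of the nucleus and cytoplasm, had log2 ratios of 0.22 and 0.25 in clone #3-1 and of -1.53 and -1.49 in clone #4-7 at probe A_23_P153905. Its other probe gave 0.03 and 0.04 and then -1.45 and -1.48. Its Cy3 change was 3.19-fold and 2.63-fold, and its Cy5 change was -0.07 and -0.11 on the log2 scale, or -0.26 and -0.28 with the processed signals.

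**Figure D2:**
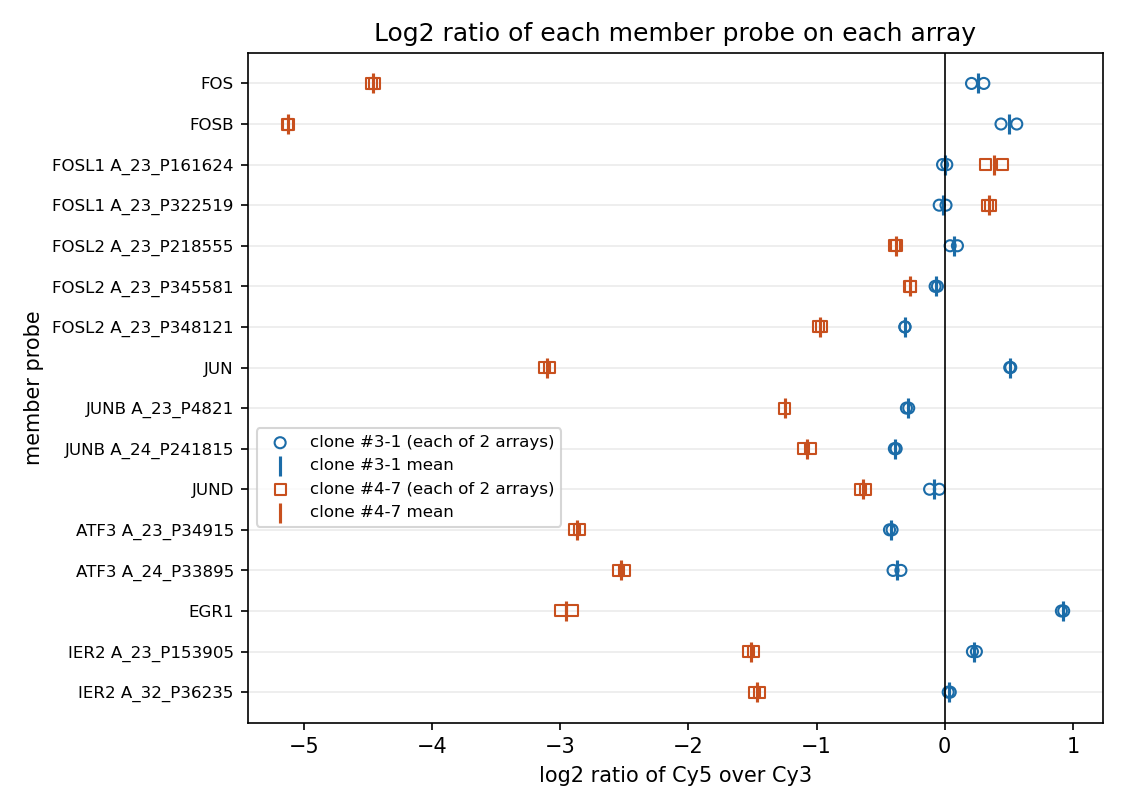
Log2 ratio of Cy5 over Cy3 for each of the 16 member probes, with a circle or square for each array and a vertical bar for the mean of a clone. The probes of clone #4-7 reach from -5.12 for FOSB to 0.38 for FOSL1, and those of clone #3-1 from -0.42 for ATF3 to 0.92 for EGR1.

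Together the 10 genes form a gradient and not a block. The difference between the clones ran from 5.62 (FOSB), 4.72 (FOS), 3.87 (EGR1) and 3.62 (JUN) through 2.45 and 2.15 (ATF3) and 1.74 and 1.50 (IER2) to under 1 for JUNB, JUND and FOSL2, and was -0.38 and -0.36 for FOSL1. Cy3 was higher on the arrays of clone #4-7 for 14 of 16 probes and 9 of 10 genes. After normalization the Cy3 change was the larger of both channels for 16 of 16 probes. These counts are a description, since the Cy3 change is a large part of the difference that chose the members. The matching shares of all probes were not counted. A larger Cy3 change was general: over the 26916 probes described above, the median size of the change was 0.22 in Cy3 and 0.057 in Cy5. The normalized change in Cy5 lay between -0.39 (EGR1) and 0.83 (FOSB). With the processed signals the Cy3 change was the larger for 15 of 16 probes, the exception being JUND with 0.23 in Cy3 and -0.40 in Cy5, and the change in Cy5 lay between -0.54 (EGR1) and 0.89 (FOSB). The ratio within each clone was tested for the 7 genes other than FOS, FOSB and ATF3. This ratio is a part of the difference between the clones, so the tests are not independent of the choice of these 7 genes. In clone #3-1, 3 of their 12 probes were higher in Cy5 (JUN, EGR1 and 1 of IER2), 3 were lower (both of JUNB and 1 of FOSL2) and 6 did not pass an unadjusted p of 0.001. Over all probes 16.2% were higher and 16.4% lower in this clone. In clone #4-7, 2 probes were higher (FOSL1), 10 were lower, with JUNB A_23_P4821 on 1 array among them, and 0 did not pass, where 16.0% of all probes were higher and 15.0% lower. Calls of small size depended on the arrays used. Without replicate 1 or replicate 2 of clone #3-1, 3 of the 12 probes passed in that clone, and without replicate 1 or replicate 2 of clone #4-7, 9 and 8 passed in clone #4-7. Without replicate 1 of clone #4-7, JUNB A_23_P4821 has no value there. FOSL1, FOSL2 and JUNB A_23_P4821 and the single IER2 call in clone #3-1 each lost a call in at least 1 such setting, and JUN and EGR1 lost none.

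Genes outside the family were described from lists of related genes, each by its brightest probe, and here the difference between the clones was tested. The lists were chosen with earlier results of these data known, and the contrast is the one that chose the members. The tests are thus not independent of that choice. The immediate early genes other than the 10 mostly differed in the direction of FOS and JUN. Of 30 genes, 26 had a higher log2 ratio in clone #3-1 than in clone #4-7, 1 had a lower one and 3 did not pass, where 11.0% of all probes were higher and 11.5% lower. The median difference was 1.28 on the log2 scale, against 0.00 over all probes. The median change of level was 1.25 in Cy3 and -0.01 in Cy5. In clone #4-7 25 of the 30 were lower in Cy5 and 1 higher, where 15.0% of all probes were lower and 16.0% higher. In clone #3-1 7 were lower and 13 higher, where 16.4% of all probes were lower and 16.2% higher.

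The largest differences in this list were those of NR4A2 (4.45) and NR4A3 (4.00), orphan nuclear receptors, CCN1 (4.40, named CYR61 on the array), a secreted matrix protein, and EGR2 (4.09), a relative of EGR1. Their adjusted p by limma were 1.1e-05, 2.5e-05, 1.1e-05 and 1.2e-05. NR4A2 had a mean log2 ratio of 1.45 ± 0.05 in clone #3-1 and of -3.00 ± 0.01 in clone #4-7 (SD, n = 2 arrays). NR4A3 was below 0 in both clones, at -0.23 ± 0.11 and -4.23 ± 0.09. The Cy3 levels of the 4 genes were higher on the arrays of clone #4-7 by 3.99 to 5.16 on the log2 scale, and the Cy5 levels changed by -0.11 to 0.77. PLAUR, the receptor of urokinase, was the single gene that went the other way, by -0.43 (adjusted p = 0.0015). IER5, MYC and CXCL8 did not pass, and the probe of CXCL8 was well above background in Cy3 on 0 arrays.

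**Figure D3:**
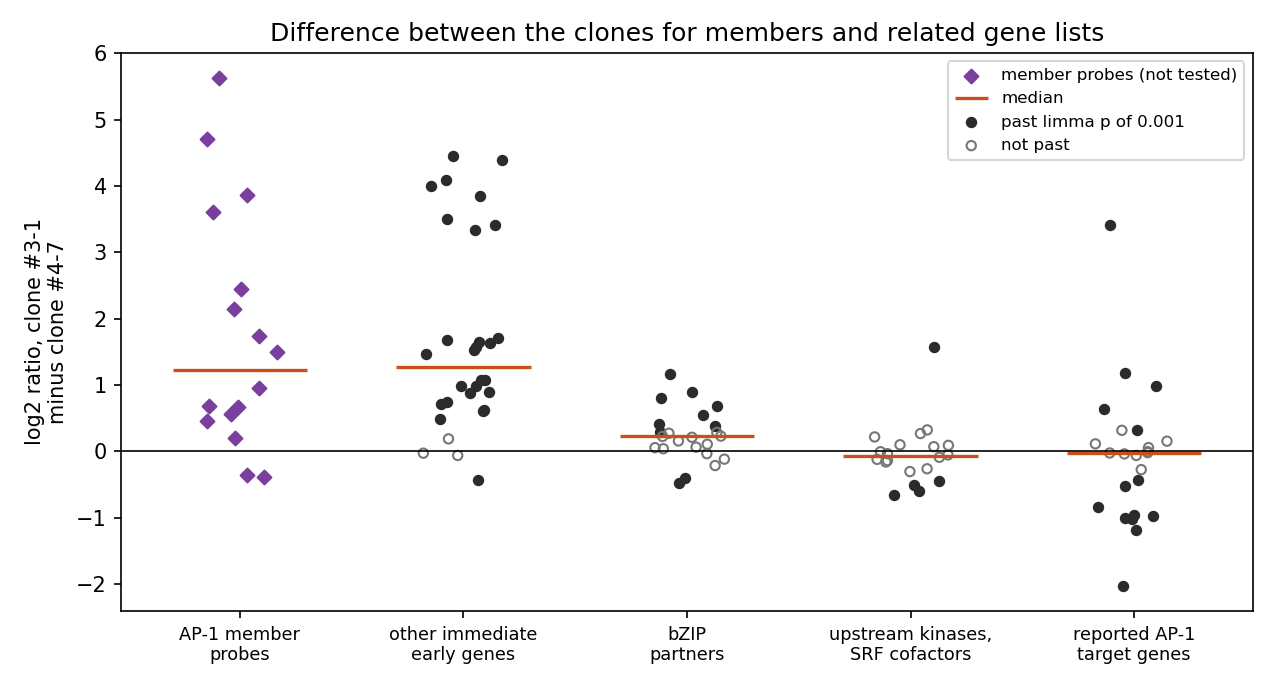
Difference of the log2 ratio of Cy5 over Cy3 between clone #3-1 and clone #4-7 for the 16 member probes (diamonds, not tested) and the genes of the 4 related lists (filled circles passed limma's unadjusted p of 0.001, open circles did not), with a bar for the median. The immediate early genes reach 4.45 with a median of 1.28, while the medians of the bZIP partners, the upstream factors and the reported targets lie between -0.07 and 0.22.

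The other bZIP proteins, with which Fos, Jun and ATF proteins can pair or compete, were higher more often than lower. Of 23, 8 were higher in clone #3-1 than in clone #4-7, 2 were lower and 13 did not pass, with a median of 0.22, where 11.0% of all probes were higher and 11.5% lower. The higher ones included ATF5 (1.17, adjusted p = 0.00012, limma) and DDIT3 (0.81, adjusted p = 0.00018), which belong to the response to cell stress, the small Maf protein MAFF (0.89, adjusted p = 0.00012) and JDP2 (0.69, adjusted p = 0.00032), a repressor that pairs with JUN. CREM (-0.47, adjusted p = 0.00069) and ATF1 (-0.41, adjusted p = 0.0012), of the CREB family, were lower. The count depended on the arrays: it was 4 without replicate 2 of clone #4-7 and 6 without replicate 1 of clone #3-1. MAFF is on the immediate early list too.

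The MAP kinases and the partners of SRF, which carry the signal to immediate early promoters, passed the threshold about as often as all probes did. Of 20 genes on the array from a list of 21, 1 was higher in clone #3-1, 4 were lower and 15 did not pass, against 11.0% higher and 11.5% lower over all probes, and the median was -0.07. The single higher gene was SRF itself, also on the immediate early list, with 1.58 (adjusted p = 4.1e-05, limma) and mean log2 ratios of 0.17 in clone #3-1 and -1.41 ± 0.02 in clone #4-7. The lower ones were the kinases MAP2K1 (-0.66, adjusted p = 0.00032), MAP2K3 (-0.45, adjusted p = 0.0013) and RPS6KA1 (-0.51, adjusted p = 0.00089) and the SRF partner ELK3 (-0.60, adjusted p = 0.0013). Without replicate 2 of clone #4-7 the count was 3. These are mRNA levels and not the activity of the kinases.

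Genes reported as AP-1 targets went in both directions. Of 24, 5 were higher in clone #3-1 than in clone #4-7, 9 were lower and 10 did not pass, with a median of -0.03. Over all probes 11.0% were higher and 11.5% lower. Among those that did not pass, MMP3, MMP10, MMP13, IL6 and CXCL8 were well above background on no array in either channel. For these a difference could hardly be read, and they count in the median. Among the 9 lower genes, MMP1 (-0.838) was well above background in Cy3 on 2 arrays and in Cy5 on 0. The largest higher difference was that of DUSP1 (3.42, adjusted p = 1.1e-05, limma), a phosphatase of MAP kinases that is on the immediate early list too, as is HBEGF (0.99, adjusted p = 0.00012), a ligand of the EGF receptor. EREG (1.18, adjusted p = 8e-05, limma), another such ligand, was also higher. The matrix protease MMP7 (-2.02, adjusted p = 3.3e-05), the urokinase PLAU (-1.18, adjusted p = 6.8e-05), the hyaluronan receptor CD44 (-1.03, adjusted p = 1e-04) and the laminin chain LAMB3 (-1.01, adjusted p = 9.1e-05) were lower. MMP7 had a mean log2 ratio of -1.84 ± 0.04 in clone #3-1 and of 0.19 ± 0.04 in clone #4-7 (SD, n = 2 arrays), so that its Cy3 level was lower on the arrays of clone #4-7, by 2.17 on the log2 scale, where those of FOS and JUN were higher.

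**Figure D4:**
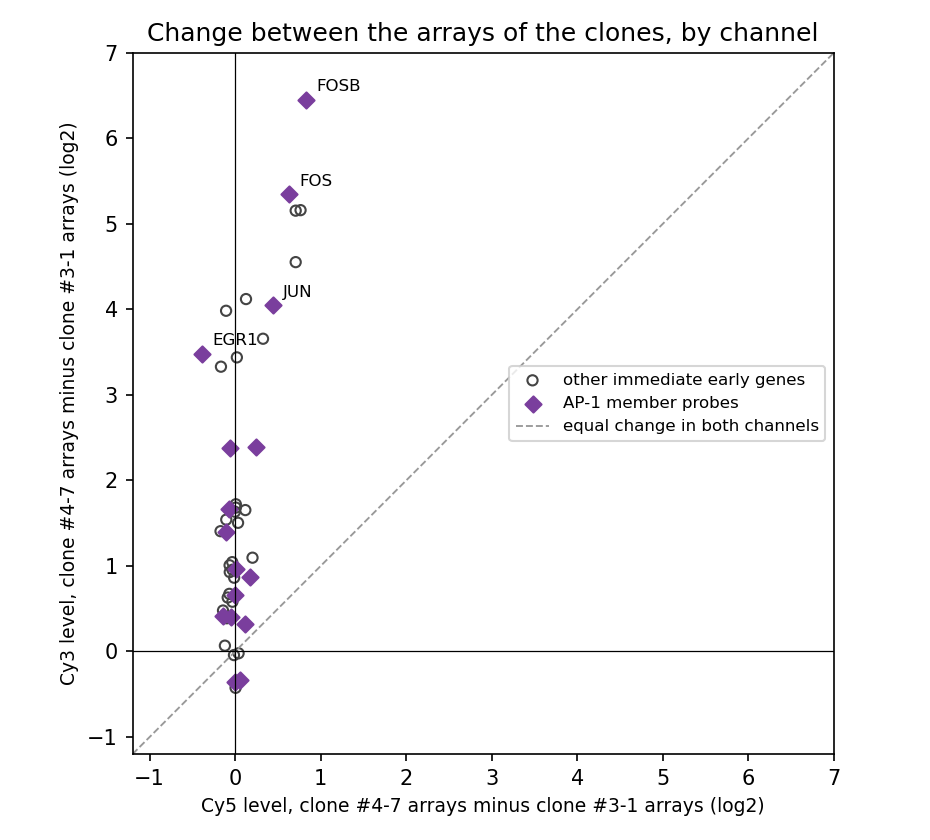
Change of the normalized level between the arrays of the clones (clone #4-7 minus clone #3-1, log2) in Cy5 (horizontal) and Cy3 (vertical) for the 16 member probes (diamonds) and the 30 other immediate early genes (circles), with a dashed line where both channels change equally. The points rise along the vertical axis, up to 6.45 in Cy3 for FOSB, and stay between -0.39 and 0.83 in Cy5.

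The genes whose log2 ratios over the 4 arrays lay nearest to those of FOS, by Euclidean distance on the log2 scale among probes well above background in both channels on all arrays, were CCN1 (0.51, probe A_23_P46426), NR4A3 (0.77), an unnamed transcript listed as THC2276504 (0.93), NR4A1 (1.05) and KRT23 (1.43). NR4A1 is an orphan nuclear receptor and KRT23 an epithelial keratin. This probe of CCN1 had log2 ratios of 0.56 and 0.59 in clone #3-1 and of -4.64 and -4.63 in clone #4-7, and the probe of CCN1 in the list gave a mean of -3.78 in clone #4-7. KRT23 had 0.10 and 0.06 in clone #3-1 and -3.50 and -3.44 in clone #4-7. The nearness is a description over 4 arrays.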

How the data were processed

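RNA was hybridised on 4 Agilent 2-colour arrays, 2 for each of clone #3-1 and clone #4-7, all on 1 slide. The authors deposited the scanner intensity of spots and their surroundings in Cy3 and Cy5, with no normalization, together with processed intensities and the log10 ratio of Cy5 over Cy3. The deposited flags, of 0 or 1, mark outlier, saturated and dim spots. A table of log10 ratios that the authors also deposited lies within 0.005 of those in the scanner files. The software is Feature Extraction 8.5.1.1 per the submitters' processing notes and 9.5.3.1 per the file headers. Depth has no counterpart on arrays, and their number limits the precision.

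Intensities were corrected with normexp (offset 50) and normalized by loess within and quantiles between arrays on the log2 scale in R 4.3.3 with limma 3.58.1, after the steps the methods name. Channel levels are the normalized values split by dye. Outlier spots were left out and spots of a probe averaged. A linear model with a term per clone was fitted over 41000 probes, with empirical Bayes statistics, an unadjusted p of 0.001 as threshold and Benjamini-Hochberg adjusted p over all probes. The fit was tested on simulated data. Probe coordinates follow hg17, as in the files, with no annotation of that build used, and symbols were updated for 23434 probes through RefSeq.

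The members and gene lists were chosen with earlier results of these data known. Named from each list are up to 4 genes per direction with the largest difference past the threshold and genes that another result turns on, besides the 5 genes nearest to FOS. Some genes that this rule or the marker lists cover are not reported here. Alternatives were other background corrections and normalizations, the processed signals, the authors' table, a trended prior, adjusted p, bright probes alone, each array left out and a replicate block.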

Additional observations from a re-analysis of the deposited data

Results flagged for a closer look

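The following values are listed because the arrays of the clones lie on opposite sides of 0, or because the difference between the clones passed the test. All arrays of clone #3-1 were above 0 and all of clone #4-7 below it for FOS (difference of the log2 ratios 4.72), FOSB (5.62), JUN (3.62), EGR1 (3.87), FOSL2 probe A_23_P218555 (0.453) and IER2 (1.74 and 1.50). The share of all probes with such opposite signs was not counted. In clone #3-1 this FOSL2 probe and IER2 probe A_32_P36235 lay near 0 and did not pass (adjusted p = 0.11 and 0.36, limma). For the members the difference between the clones was not tested, since it chose the set. By the limma contrast of the clones, 27 of 30 other immediate early genes, 10 of 23 bZIP partners, 5 of 20 upstream kinases and SRF cofactors and 14 of 24 reported AP-1 targets differed, where 11.0% of all probes were higher in clone #3-1 and 11.5% lower. The share of the upstream genes is near that of all probes. In the members the difference lay mostly in Cy3, the channel labelled as the same empty vector clone on every array, and the cause was not tested.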

How the results depend on the processing

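Over 14 settings, 0 of the members' differences between the clones changed sign, and of their ratios within a clone those of FOSL1 in clone #3-1 did, which lie near 0 and were not called. Among the tested ratios 38 calls were lost over these settings, 21 in clone #3-1 and 17 in clone #4-7. In clone #3-1 the processed signals left 3 of the 6 calls, and leaving out an array left 3 to 5. In clone #4-7 plain background subtraction left 7 of 12, and leaving out an array 8 to 12. For the difference between the clones, 10 bZIP partners became 5 with an offset of 0, 4 with plain subtraction, 6 with processed signals, 16 with a trended prior, 17 at an adjusted p of 0.05, and 4 to 8 with an array left out. The 5 upstream genes became 2, 2, 2, 8 and 11 under the same settings, and 3 to 5 with an array left out. The 27 immediate early genes (23 to 27 with an array left out) and 14 target genes (12 to 13) moved by less than 1.5 times in all settings run. The causes were not tested. Replicates with the same number did not deviate together (r = -0.013 over probes). Each clone gives a single difference, taken after normalization, so this value cannot tell whether they shared a batch. With the replicate block 4 members passed in clone #3-1 and 12 in clone #4-7, and the lists had 27, 9, 5 and 13 calls. The slide as a block was not run because all arrays lie on 1 slide. Dyes were not exchanged on any array, so a dye effect of a probe cannot be told apart from its ratio.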
